A study of Homo sapiens with 6 samples.

Results

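MDM2, CDKN1A, BAX and FDXR are 4 classical target genes of the transcription factor p53, and they are 4 of the 5117 genes in the count table of this study. They were chosen by gene symbol and on their measured difference between the 2 groups of libraries, because MDM2 was lower while the other 3 were higher. Their values in this comparison are therefore given as a description, without a test. RNA was sequenced from HMC3, an established human microglial cell line labelled wild type, after treatment with C1s-CM (a CM with C1s, 3 libraries) or with a CM without C1s (3 libraries, titled FLAG). The labels do not spell out CM or say how long the cells were treated. C1s is the serine protease of the classical complement pathway that cleaves C4 and C2. All cells were grown in MEM with serum, penicillin and streptomycin, and the labels do not tell whether the 3 libraries of a group came from separate cultures, so the spread between them may be technical. HMC3 is known as a line immortalized with SV40 large T antigen, a viral protein that binds p53, which limits it as a model of p53 activity.

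p53 is a transcription factor that stress signals such as DNA damage stabilize, and it switches on genes for cell cycle arrest, apoptosis, DNA repair and metabolism. MDM2 is both its target and its main inhibitor: the MDM2 protein is an E3 ubiquitin ligase that sends p53 to the proteasome, which closes a negative feedback loop. CDKN1A encodes p21, an inhibitor of cyclin-dependent kinases that halts the cell cycle. BAX encodes a pore-forming member of the BCL2 family that permeabilizes the outer mitochondrial membrane, and FDXR encodes ferredoxin reductase, the mitochondrial enzyme that passes electrons from NADPH to ferredoxins for iron-sulfur cluster and steroid synthesis.

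The table analysed holds genes that had passed the authors' own threshold on the same libraries, so a call in it is no independent evidence of a change. Total counts of the table were 12730766 to 14961744 per library, which is a part of each library and not its sequencing depth. In edgeR's quasi-likelihood test with TMM scaling, 99.4% of 5116 genes tested passed an adjusted p of 0.05, 50.9% higher and 48.5% lower in C1s-CM, and the groups did not overlap for 97.2%. With total counts as the only scaling the median log2 fold change of all genes moved from 0.08 to -0.05. Of 18 microglial markers 1 had a row, and a gene without a row was not analysed here, so the labelled cell type could not be checked. Of 9 fibroblast and pericyte markers COL1A1, PDGFRB and THY1 had a row. Their summed level was 5010 to 5140 CPM (counts scaled by total count and the TMM factor of the library) in C1s-CM and 4833 to 4931 CPM in control libraries, and its part in the results was not tested. None of 6 astrocyte or glioma and 4 endothelial markers had a row.

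MDM2 is the one of the 4 genes with a second start site that is known to respond to p53, and its sequence is shown here because it carries the response elements that define MDM2 as a target. Both elements lie in the first intron, in the RefSeq sequence at chr12:68808903-68809000 (plus strand, GRCh38.p14), before a transcript start annotated at position 68809017. Capitals mark the 2 best matches to the 20-base p53 response element.
MDM2 intronic promoter: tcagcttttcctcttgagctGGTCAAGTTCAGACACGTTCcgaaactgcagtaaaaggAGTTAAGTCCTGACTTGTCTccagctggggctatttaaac

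The motif searched was the pair of adjacent p53 half-sites, which reads alike on both strands. The first match had 18 of its 20 bases, and 0.649% of 35116 RefSeq start site windows of 300 bases held a match at least as good. The second had 17 of 20 bases, a match that 5.20% of windows reached. Around the upstream MDM2 start and the CDKN1A start the best match had 15 bases, which 70.5% of windows reached. The best match was 16 bases for BAX (26% of windows). In the 2 FDXR windows it was 17 (5.20%) and 16 bases (26%). RefSeq windows were found for all 4 genes, and they do not reach the distal elements known for CDKN1A. Sites outside the windows were not searched for any of the 4 genes. The counts do not separate the start sites, so the share of MDM2 RNA from the intronic promoter was not measured.

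MDM2 had the fewest counts of the 4 genes and the largest difference. The libraries held 412, 370 and 376 MDM2 counts in C1s-CM and 536, 627 and 638 in control CM. On the TMM scale this was 30.2, 25.9 and 27.6 CPM against 40.6, 44.4 and 43.7 CPM. Every C1s-CM library was below every control library, on raw counts as well. In RNA from whole cultures, fewer cells expressing a gene and less RNA per cell cannot be told apart. The mean was 27.9 ± 2.13 CPM in C1s-CM and 42.9 ± 2.00 CPM in control CM (SD, n = 3 each), or 0.650 times the control level. The log2 fold change was -0.62 ± 0.07 (SE), and 9.95% of all genes tested had a lower one.

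CDKN1A was the most abundant of the 4 genes in counts and had the smallest difference. The libraries held 9144, 9147 and 8881 CDKN1A counts in C1s-CM and 7841, 8140 and 8518 in control CM. The corresponding levels were 669.6, 641.2 and 652.3 CPM against 594.4, 576.2 and 583.5 CPM, so that the groups did not overlap. The mean was 654.4 ± 14.3 CPM in C1s-CM and 584.7 ± 9.16 CPM in control CM (SD, n = 3 each), 1.12 times the control level, with a log2 fold change of 0.16 ± 0.03 (SE). This separation depended on the scaling. Scaled by total counts only, the CDKN1A levels were 642.7, 611.4 and 625.6 CPM in C1s-CM and 615.9, 601.6 and 614.4 CPM in control CM, the groups overlapped and the log2 fold change was 0.04 ± 0.03.

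BAX counts were 3915, 4319 and 3950 in C1s-CM and 3410, 3664 and 3583 in control CM. The levels were 286.7, 302.8 and 290.1 CPM against 258.5, 259.3 and 245.4 CPM, again without overlap. Mean BAX was 293.2 ± 8.47 CPM against 254.4 ± 7.79 CPM (SD, n = 3 each), 1.15 times the control level, with a log2 fold change of 0.21 ± 0.03 (SE). Scaled by total counts only, the BAX groups did not overlap, and the log2 fold change was 0.08 ± 0.03. The share of all genes without overlap was not counted for this scaling.

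FDXR had the largest difference of the 3 higher genes. It had 3090, 3282 and 3046 counts in C1s-CM and 2370, 2468 and 2639 in control CM. This was 226.3, 230.1 and 223.7 CPM against 179.7, 174.7 and 180.8 CPM, with all C1s-CM libraries above all controls. Mean FDXR was 226.7 ± 3.19 CPM against 178.4 ± 3.24 CPM (SD, n = 3 each), 1.27 times the control level, with a log2 fold change of 0.35 ± 0.03 (SE). Of all genes tested 91.5% had a lower log2 fold change, while 60.0% were below CDKN1A and 67.9% below BAX. The log2 fold change of FDXR with total counts as the only scaling was 0.22 ± 0.03.

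**Figure D1:**
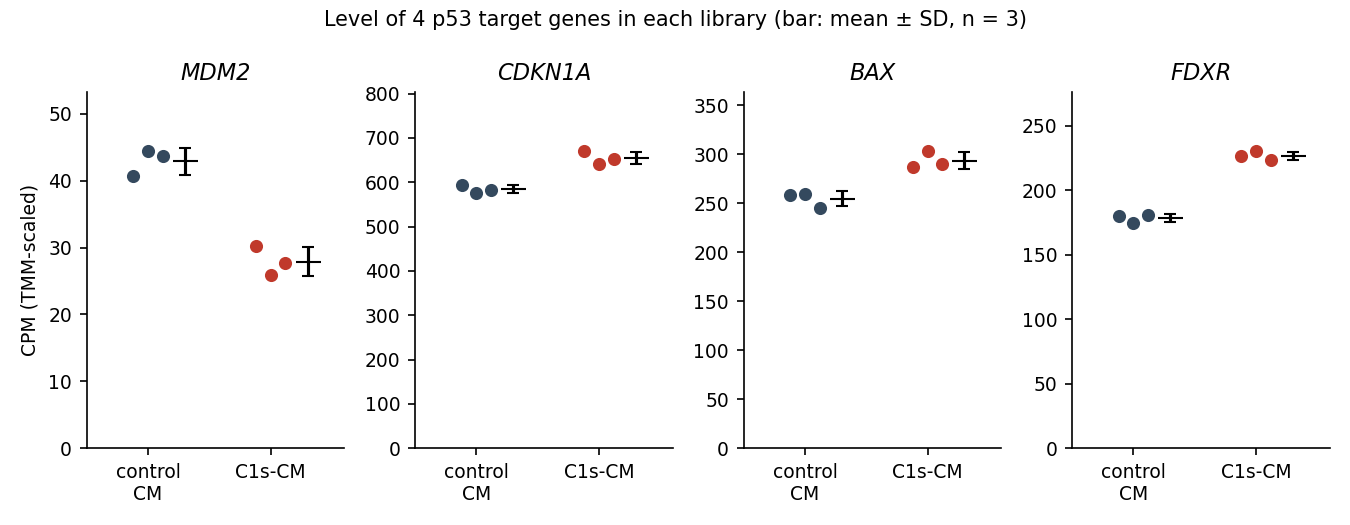
Levels of MDM2, CDKN1A, BAX and FDXR in each library in TMM-scaled CPM (y axis from 0, one panel per gene), with points for the 3 control CM and 3 C1s-CM libraries and the mean ± SD beside them. MDM2 lies lower in all C1s-CM libraries (25.9 to 30.2 CPM) than in controls (40.6 to 44.4 CPM), and the other 3 genes lie higher.

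The authors' deposited table gave log2 fold changes of -0.59 for MDM2, 0.20 for CDKN1A, 0.24 for BAX and 0.38 for FDXR. Each was 0.04 above the edgeR value, as was the median gene, and the sign was the same in both sources for all 4 genes.

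The spread between libraries was near the counting error for MDM2, whose coefficient of variation was 7.63% in C1s-CM and 4.66% in control CM where its counts alone would give 5.09% and 4.08%. For FDXR the observed 1.41% and 1.82% were below the 1.78% and 2.00% from counting. CDKN1A varied by 2.18% and 1.57% against 1.05% and 1.11%, and BAX by 2.89% and 3.06% against 1.57% and 1.68%. With 370 to 638 counts MDM2 is thus the least precisely measured of the 4, and CDKN1A the most deeply counted.

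Per length, BAX was the most abundant of the 4 RNAs and MDM2 the least. In control CM the level was 320.8 ± 9.82 CPM per kb for BAX, 257.9 ± 4.04 for CDKN1A, 95.1 ± 1.73 for FDXR and 17.0 ± 0.792 for MDM2 (SD, n = 3). In C1s-CM it was 369.7 ± 10.7, 288.6 ± 6.30, 120.9 ± 1.70 and 11.1 ± 0.844 CPM per kb, in the same order and with neighbours apart by more than their spread. These levels divide by the length of one representative transcript per gene. The order of BAX and CDKN1A turned with the longest annotated transcript, which put BAX at 187.4 ± 5.73 and CDKN1A at 257.9 ± 4.04 CPM per kb in control CM. MDM2, whose longest transcript has 12633 bases against 2523, was then at 3.40 ± 0.158 CPM per kb.

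Ratios of counts within a library do not depend on library scaling, though they change with the GC and length offsets given below. That the MDM2 ratios differ follows from the choice of genes, of which MDM2 was lower and the other 3 higher. How often ratios of other gene pairs separate the groups was not counted. For every 100 CDKN1A counts there were 4.51, 4.05 and 4.23 MDM2 counts in C1s-CM and 6.84, 7.70 and 7.49 in control CM. The 2 groups did not overlap, and the mean log2 ratio was -4.55 ± 0.08 against -3.77 ± 0.09 (SD, n = 3 each). Per 100 BAX counts, MDM2 had 9.54 ± 0.979 counts against 16.9 ± 1.06. Per 100 FDXR counts it had 12.3 ± 1.03 against 24.07 ± 1.398, the widest of the 6 ratios at a log2 difference of -0.97.

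Among the 3 higher genes the ratios were closer. BAX had 42.8, 47.2 and 44.5 counts per 100 CDKN1A counts in C1s-CM and 43.5, 45.01 and 42.1 in control CM, so the groups overlapped. FDXR had 34.7 ± 1.09 counts per 100 CDKN1A counts against 30.5 ± 0.412, and 77.3 ± 1.48 per 100 BAX counts against 70.2 ± 3.20, without overlap in either case.

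**Figure D2:**
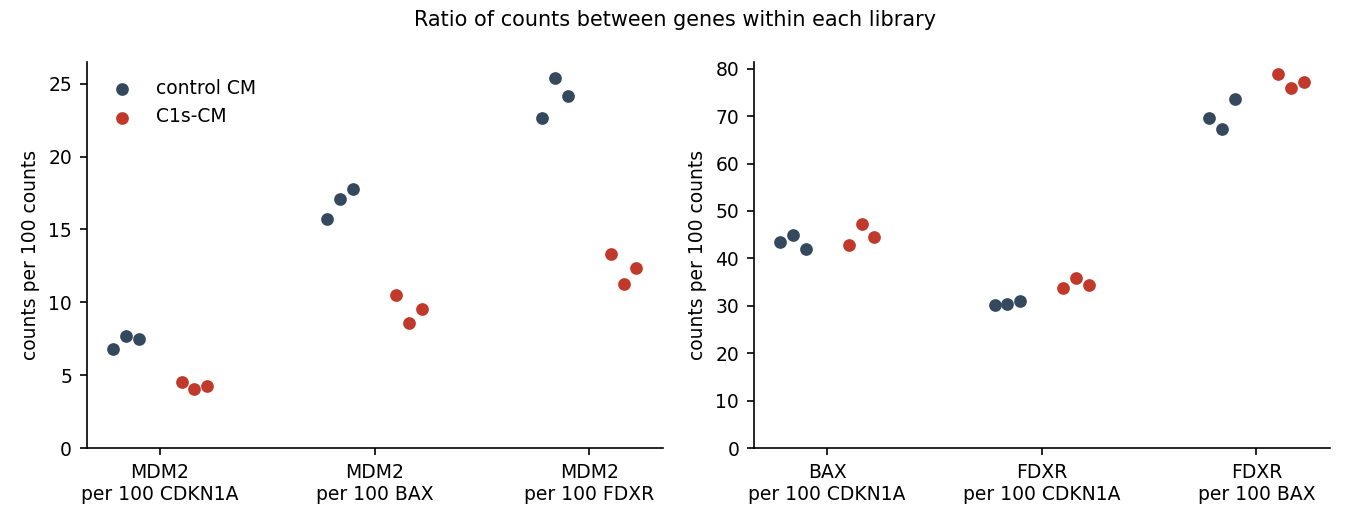
Counts of one gene per 100 counts of another in the same library (y axes from 0), for the ratios of MDM2 to the other 3 genes (left) and of those 3 to each other (right), with one point per library. All 3 MDM2 ratios are lower in every C1s-CM library, from 6.84 to 7.70 per 100 CDKN1A counts down to 4.05 to 4.51, while BAX per 100 CDKN1A counts overlaps.

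On GRCh38 all 4 genes are annotated as protein-coding. MDM2 (ENSG00000135679) lies on the plus strand of chromosome 12 from 68808176 to 68850686 and CDKN1A (ENSG00000124762) on that of chromosome 6 from 36676460 to 36687339. BAX (ENSG00000087088) lies on the plus strand of chromosome 19 from 48954815 to 48961798 and FDXR (ENSG00000161513) on the minus strand of chromosome 17 from 74862497 to 74873031. The use of strand in counting is not given in the sources used here. MDM2 shares 8490 bases at its 3′ end with the carboxypeptidase M gene on the opposite strand, and CDKN1A shares 951 bases with the noncoding RNA DINOL, also opposite. MDM2 further overlaps 3 short noncoding or pseudogene entries, and no overlapping gene has a row. None of the shared bases falls in an exon of the representative MDM2 or CDKN1A transcript. The representative MDM2 transcript ends at 68840807, before the end of the gene, and exons of other transcripts were not checked. Reads of overlapping genes cannot be told apart without strand. BAX and FDXR overlapped no other annotated gene.

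The 4 genes differ in base composition along the same line as in direction. The representative transcript of MDM2 is 41.8% G and C, against 58.1% for CDKN1A, 60.7% for BAX and 63.8% for FDXR. At the third codon position the share was 30.3% for MDM2 and 68.9%, 79.7% and 75.2% for the others. The middle 90 coding bases of each representative transcript show the contrast, with G and C in capitals. They hold 34 G or C in MDM2, 67 in CDKN1A, 53 in BAX and 49 in FDXR.
MDM2: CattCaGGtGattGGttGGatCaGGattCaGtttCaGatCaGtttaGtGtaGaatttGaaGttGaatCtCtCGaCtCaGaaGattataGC
CDKN1A: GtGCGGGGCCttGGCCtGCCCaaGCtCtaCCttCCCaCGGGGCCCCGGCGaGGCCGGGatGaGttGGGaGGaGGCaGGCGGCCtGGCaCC
BAX: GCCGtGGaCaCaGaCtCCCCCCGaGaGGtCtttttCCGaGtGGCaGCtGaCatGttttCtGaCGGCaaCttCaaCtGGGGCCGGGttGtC
FDXR: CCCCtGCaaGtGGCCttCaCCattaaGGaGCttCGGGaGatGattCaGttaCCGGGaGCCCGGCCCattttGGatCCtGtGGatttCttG

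Direction followed composition across the whole table. All genes were cut by GC content into 10 bins of near equal size, and each of the 4 genes was set beside its own bin. In the bin of MDM2 (41.4 to 43.7% GC, 511 genes) 3.52% of genes were higher in C1s-CM and the median log2 fold change was -0.38, with 9.59% of genes below MDM2. In the bin of CDKN1A 99.6% were higher with a median of 0.20, and 32.1% lay below CDKN1A. In that of BAX 100% were higher with a median of 0.23, and 36.8% lay below BAX. In that of FDXR 99.6% were higher with a median of 0.26, and 81.2% lay below FDXR. CDKN1A and BAX lay below the medians of their bins but above the lower quartiles (0.15 and 0.18). FDXR lay above the upper quartile of its bin (0.32), and MDM2 below the lower quartile of its own (-0.50). The bins have fixed edges. FDXR was near the upper edge of its bin, and the next bin had a median of 0.30. MDM2 was nearer the lower edge of its own, and the next bin below had a median of -0.46.

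Each library was then given an offset for GC content and length of the transcript. The log2 fold change of MDM2 was -0.29 ± 0.07 (SE), and its groups did not overlap. The share of all genes without overlap was not counted for the offsets, so this separation has no background to be set against. CDKN1A was at -0.04 ± 0.02, BAX at -0.05 ± 0.03 and FDXR at 0.06 ± 0.03, each with overlapping groups. With the longest transcript in place of the representative one, the values were -0.17 ± 0.07 for MDM2, -0.08 ± 0.02 for CDKN1A, -0.07 ± 0.03 for BAX and 0.08 ± 0.03 for FDXR. The log2 difference in the MDM2 to CDKN1A ratio was -0.78 without and -0.24 with the offsets. The offsets were fitted on the genes of this table alone and would also take out a biological difference that followed GC content.

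**Figure D3:**
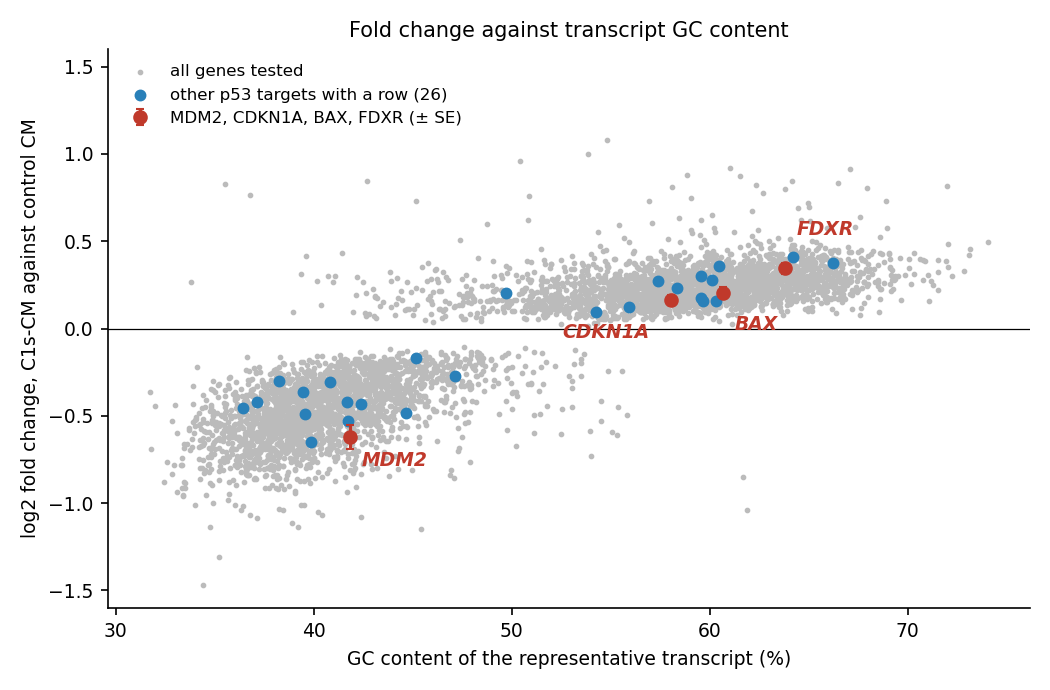
Log2 fold change between C1s-CM and control CM (y axis, positive when higher in C1s-CM) against the GC content of the representative transcript in percent (x axis) for all genes tested (grey), 26 other p53 targets (blue) and MDM2, CDKN1A, BAX and FDXR (red, ± SE). The p53 targets lie within the cloud of all genes, with MDM2 at 41.8% GC and a log2 fold change of -0.62 and the other 3 genes above 0. The band without genes around 0 reflects that the table holds called genes, and 6 genes fall outside the drawn range.

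Other p53 targets also moved in both directions. Of 71 targets in 5 lists by role 30 had a row and 41 were not analysed here. Of the 30, 16 were called higher and 14 lower, where 50.9% and 48.5% of all genes were. Their median log2 fold change was 0.11 against 0.08 for all genes. Without MDM2, CDKN1A, BAX and FDXR, 13 rose and 13 fell (median -0.04). The groups did not overlap for 28 of the 30, where they did not for 97.2% of all genes. Scaled by total counts only, 8 were called higher and 14 lower (median -0.02), where 26.1% and 49.2% of all genes were. Without the 4 chosen genes 6 were then called higher and 13 lower (median -0.16). These lists were drawn up with earlier results of these data known.

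All 15 targets with a transcript GC content of at least 50% were higher, where 2475 of 2525 of all genes were. Of the 15 targets below it 14 were lower, where 2428 of 2587 of all genes were. Without the 4 genes chosen on their direction these were 12 of 12 and 13 of 14. The exception was BID (49.7% GC, log2 fold change 0.20 ± 0.06, SE), a BH3-only activator of BAX, which was named after its values were seen. Across the 30 genes, which are not independent replicates and share the same 6 libraries, Spearman's rho between log2 fold change and GC content was 0.86. Over the 5112 genes with a GC value rho was 0.85. With the offsets 4 targets were called higher and 2 lower, where 14.9% and 10.9% of all genes were. The 2 lower include MDM2, and without the 4 chosen genes 4 were called higher and 1 lower. The median of the 30 with the offsets was 0.0033, and 13 of the 30 changed sign.

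Of 8 negative regulators of p53 listed 4 had a row, at a median GC content of 40.0%. MDM2 is among them and was chosen because it was lower. The 3 others were lower as well, where 48.5% of all genes were. In the GC bins that hold these 3 genes only 0.391 to 3.52% of genes were higher. That all 3 were lower is thus near the background of their composition. Beside MDM2 they were MDM4, the MDM2 homologue that blocks p53 transactivation (-0.43 ± 0.10, SE, adjusted p = 0.000349), RCHY1, another E3 ligase for p53 (-0.42 ± 0.08, adjusted p = 6.01e-05), and CCNG1, cyclin G1 (-0.30 ± 0.03, adjusted p = 4.26e-08). MDM4 had 184, 215 and 196 counts in C1s-CM and 240, 248 and 322 in control CM, without overlap. With the offsets CCNG1 turned to 0.16 ± 0.03 and was called higher, RCHY1 turned to 0.14 ± 0.08 and missed the threshold, and MDM4 was at -0.0042 ± 0.10. The value of MDM2 with the offsets, -0.29, was the lowest of the 4.

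Of 13 arrest genes only CDKN1A and CCNG2, a cyclin G2 gene, had a row. CCNG2 fell by 0.31 on the log2 scale (adjusted p = 1.12e-05), at 40.8% GC, and with the offsets it was at 0.16 ± 0.05, called higher. CCNG2 was at 0.13 with the longest transcript and missed the threshold.

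Apoptosis genes were divided. Of 22 listed, 11 had a row, BAX included. Of the 11, 7 were higher and 4 lower, where 50.9% and 48.5% of all genes were. PIDD1, which encodes a scaffold for caspase-2 activation, rose (0.38 ± 0.06, SE), as did SHISA5 (0.16 ± 0.03). APAF1, the core of the apoptosome, fell (-0.49 ± 0.07), as did TP53INP1, a stress-induced cofactor of p53 (-0.49 ± 0.08). Their largest adjusted p was 4.92e-05. Scaled by total counts only, 2 of the 11 were called higher and 4 lower, where 26.1% and 49.2% of all genes were. SHISA5 (0.03) then missed the threshold. With the offsets BID (0.23 ± 0.05) was the 1 gene of this list that was called, higher. With the longest transcript SHISA5 (-0.09) and the decoy receptor gene TNFRSF10D (-0.18), the latter named after its values were seen, were also called, both lower.

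Among DNA repair genes 6 of 8 listed had a row, and 2 rose while 4 fell, where 50.9% and 48.5% of all genes did. The replication clamp PCNA fell (-0.17 ± 0.03, SE), as did RRM2B, a ribonucleotide reductase subunit (-0.46 ± 0.09), while the stress sensor GADD45B rose (0.27 ± 0.04). Their largest adjusted p was 6.37e-05. With the offsets PCNA (-0.06 ± 0.02), RRM2B (0.12 ± 0.09) and GADD45B (0.04 ± 0.04) missed the threshold. PCNA was called lower with the longest transcript (-0.13).

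Of 20 metabolic and redox targets listed, 7 had a row, FDXR included. Their median GC content was 60.1% and their median log2 fold change 0.30. Of the 7, 6 were higher and 1 lower, where 50.9% and 48.5% of all genes were. In the GC bins that hold the 6 higher genes 99.6 to 100% of genes were higher, and in that of the lower gene 3.52%. The directions are thus near the background of their composition. Beside FDXR, the glutathione peroxidase GPX1 rose (0.41 ± 0.03, SE), as did ALDH4A1, a proline catabolism enzyme (0.36 ± 0.06), and the carnitine palmitoyltransferase CPT1C (0.28 ± 0.04). FERMT2, an integrin activator, fell (-0.42 ± 0.04). The largest adjusted p of these 4 was 4.15e-06. With the offsets GPX1 (0.08 ± 0.03) was the 1 of the 7 that was called, higher. With the longest transcript FERMT2 was called higher as well (0.16).

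**Figure D4:**
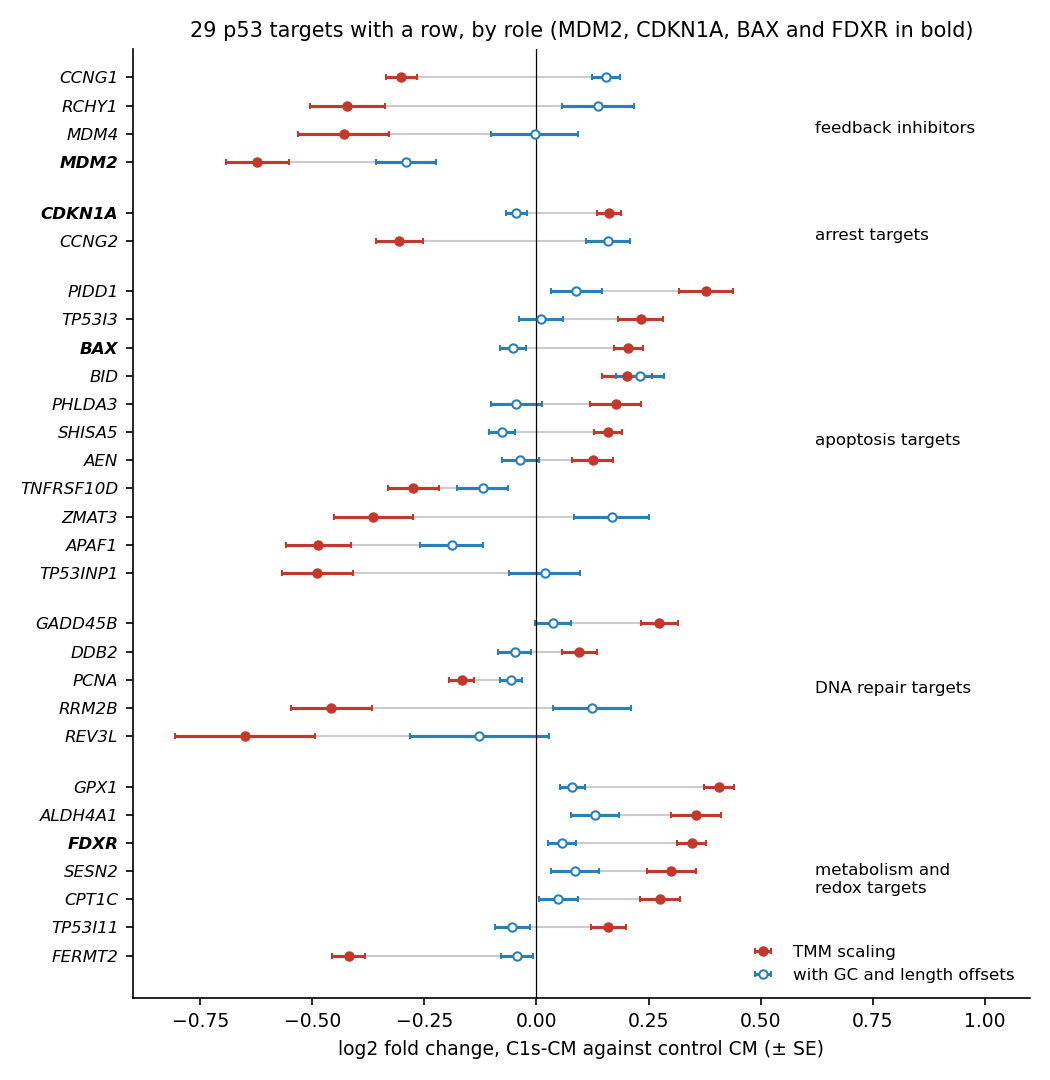
Log2 fold change ± SE (x axis) of 29 of the 30 p53 targets with a row, grouped by role and ordered by value, with TMM scaling (filled red) and with offsets for GC content and length (open blue). Filled points spread from -0.65 to 0.41, and open points lie between -0.29 and 0.23, with MDM2 the lowest of them.

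Genes that act with BAX were also divided. The BCL2 family and partner list had 13 of 26 genes with a row, BAX and 12 others. Of the 13, 8 were higher and 4 lower, where 50.9% and 48.5% of all genes were. The 8 include BAX, which was chosen as higher. TMBIM6 (0.05 ± 0.03, SE), an inhibitor of BAX, missed the threshold. The pore-forming BAX relatives BAK1 (0.30 ± 0.04) and BOK (0.32 ± 0.03) rose, as did the BH3-only gene BAD (0.45 ± 0.05), with a largest adjusted p of 2.37e-07, and the apoptosome gene APAF1 fell as above. Median GC content of the list was 56.9%. With the offsets BAK1 (0.08 ± 0.04), BOK (0.03 ± 0.02) and BAD (0.10 ± 0.04) missed the threshold. The 3 genes of the list then called, all higher, were named after their values were seen: BID, TMBIM6 (0.25 ± 0.03) and CYCS, the cytochrome c gene (0.18 ± 0.04), which without the offsets was lower (-0.22 ± 0.04).

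Among the cyclins, kinases and inhibitors around p21, 16 of 26 listed had a row, CDKN1A and 15 others. Of the 16, 6 were higher and 10 lower, where 50.9% and 48.5% of all genes were. The 6 include CDKN1A, which was chosen as higher. CDK1 (-0.43 ± 0.03, SE), CDK6 (-0.65 ± 0.06) and the retinoblastoma gene RB1 (-0.63 ± 0.06) fell, and CDK4 rose (0.27 ± 0.03), with a largest adjusted p of 5.39e-09. With the offsets 2 genes of this list were called higher and 4 lower, where 14.9% and 10.9% of all genes were. CDK4 was still called higher (0.16 ± 0.03). CDK1 turned to 0.09 ± 0.03 and was called higher (-0.03 and not called with the longest transcript). CDK6 and RB1 missed the threshold. The 4 lower genes were named after their values were seen: E2F1 (-0.07 ± 0.02), CCND3 (-0.08 ± 0.03), CDKN1B (-0.15 ± 0.05) and CDK2 (-0.09 ± 0.03). With the longest transcript CCND3 (-0.05) missed the threshold. The DREAM complex represses cell cycle genes downstream of p21. Of 16 genes of the complex and its targets (25 listed) 6 rose and 10 fell, against the same shares of all genes. In this list and the one before, all 6 genes of at least 50% GC rose and all 10 below it fell. Of all genes 2475 of 2525 and 2428 of 2587 did so, and the directions are thus near the background of their composition. TOP2A (-0.63 ± 0.03), ECT2 (-0.65 ± 0.05) and CKAP2 (-0.70 ± 0.06) fell and MYBL2 (0.32 ± 0.03) rose. In this list also 2 genes were called higher and 4 lower with the offsets. Among them TOP2A (-0.11 ± 0.02), CKAP2 (-0.20 ± 0.06) and MYBL2 (0.10 ± 0.02) stayed on their side of the threshold. ECT2 (-0.10 ± 0.04) missed it with the representative transcript and was called lower with the longest (-0.15).

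Of the FDXR partners and iron-sulfur assembly genes (18 listed) only FDXR and ISCA2, an iron-sulfur assembly factor, had a row. ISCA2 rose (0.15 ± 0.05, SE, adjusted p = 0.00399), at 43.5% GC. With the offsets it was at 0.42 ± 0.05, and when scaled by total counts only it missed the threshold (0.03).

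Upstream of the 4 genes, the p53 family and its regulators had 13 of 29 listed genes with a row. Of the 13, 5 rose and 8 fell, where 50.9% and 48.5% of all genes did. All 5 of at least 50% GC rose, and all 8 below it fell. The DNA damage kinase genes ATM (-0.74 ± 0.07, SE) and CHEK1 (-0.41 ± 0.06) and NPM1 (-0.21 ± 0.03), a nucleolar MDM2-binding protein, fell, and CDKN2A (0.26 ± 0.03), whose ARF product inhibits MDM2, rose. Their largest adjusted p was 5.58e-07. With the offsets these 4 genes missed the threshold, and with the longest transcript ATM (-0.19) and NPM1 (-0.08) were called lower. The 3 genes of the list called with the offsets were named after their values were seen: the E3 ligase gene HUWE1 (0.22 ± 0.03) and the arginine methyltransferase gene PRMT5 (0.14 ± 0.03) were higher and the ribosomal protein gene RPL5 (-0.09 ± 0.02) was lower. With the longest transcript RPL5 turned to 0.14 and was called higher, and PRMT5 (0.07) missed the threshold.

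The genes whose log2 CPM, centred on their own mean, ran closest to each of the 4 across the 6 libraries were not p53 targets of the lists. For MDM2 they were PHF6, SOS1 and CEP170, with root mean square differences of 0.01, 0.02 and 0.02 on the log2 scale and transcript GC contents of 36.0 to 39.7%. For CDKN1A they were TEAD4, TBC1D9B and MUL1, for BAX EHBP1L1, ECHS1 and HNRNPM, and for FDXR MAZ, SLC2A4RG and FLNA, at differences of 0.01 each and GC contents of 53.2 to 68.1%. Within a wider difference of 0.05 lay 45 genes of the table for MDM2, 349 for FDXR, 607 for BAX and 775 for CDKN1A. With the offsets the 3 genes nearest to MDM2 had log2 fold changes of -0.01, -0.02 and -0.13, against -0.29 for MDM2.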

How the data were processed

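Poly(A) RNA of 6 HMC3 libraries was fragmented, copied with random primers and read in pairs, per the labels' protocols. Per the submitters' processing notes the tools were FastQC 0.11.9, Trim Galore 0.6.7, HISAT2 2.2.1 and DESeq2 1.40.2 on GRCh38; no read counter or annotation is named (not given in the sources used here). The authors deposited raw counts per gene, with a log2 fold change, p-value and adjusted p-value of their own comparison per the file headers; the largest adjusted p is 0.05. Counts were fitted with edgeR 4.0.16 in R 4.3.3 (filterByExpr, which removed 1 gene, TMM, two-sided quasi-likelihood test on group alone, Benjamini-Hochberg over 5116 genes). DESeq2 1.42.0 was an alternative. The SE of a log2 fold change is its size over the root of edgeR's F. Transcript GC content and length came from GENCODE release 29 (5113 genes matched), by principal isoform and support level; offsets came from a loess fit of log2 CPM (span 0.3, 5112 genes). The steps were tested on simulated data. Replicates differed beyond counting noise (chi-square per degree of freedom 2.02 to 4.96). Genes and lists were chosen with earlier results of these data known. Named genes are the 4 targets, up to 4 per list with the smallest p, and the 3 nearest profiles per target; some of these are not reported here. Counting intervals cover counting error only.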

Additional observations from a re-analysis of the deposited data

How the results depend on the processing

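With total counts as the only scaling the log2 fold change was -0.75 for MDM2, 0.0371 for CDKN1A, 0.0796 for BAX and 0.22 for FDXR, 1336 genes were higher among 3853 called, against 2605 of 5086, and 8 p53 targets were higher. With GC and length offsets 1322 genes passed the threshold, 764 higher and 558 lower, and 6 p53 targets, 4 higher and 2 lower. The 2 lower included MDM2. MDM2 was then at -0.29 and FDXR at 0.0570, and CDKN1A (-0.0447) and BAX (-0.0519) reversed. With the longest transcript these counts were 1408, 805 and 603 genes and 9, 4 and 5 p53 targets, CDKN1A among the 5 lower. MDM2 was then at -0.17, FDXR at 0.0754, CDKN1A at -0.0759 and BAX at -0.0687. The cause of these shifts was not tested. Leaving out each library in turn gave -0.68 to -0.57 for MDM2, 0.15 to 0.18 for CDKN1A, 0.18 to 0.22 for BAX and 0.34 to 0.36 for FDXR, 4996 to 5051 genes called and 28 to 30 p53 targets. DESeq2, no filter on low counts and the filter of 50 counts kept all 4 directions, and counts of calls stayed within 1.5 times.

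The groups share replicate numbers, but same-numbered libraries did not deviate together (correlations of -0.13, -0.09 and -0.0031), so the numbers were not taken as pairs. With the replicate block 5054 genes and 30 p53 targets were called and MDM2 was at -0.62, CDKN1A at 0.16, BAX at 0.20 and FDXR at 0.35. With the block and the offsets together 1234 genes were called, 719 higher and 515 lower, and 5 p53 targets, 3 higher and 2 lower, with MDM2 at -0.29, CDKN1A at -0.0449, BAX at -0.0523 and FDXR at 0.0571. The block without the offsets changed no other call. Depth limits MDM2 most, and the 41 p53 targets that have no row were not analysed here.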
